A study of Homo sapiens with 27 samples.

Results

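The clustered protocadherins were followed in U2OS cells, a human osteosarcoma line, during expansion of the culture and after knockdown of MMP2, which encodes the gelatinase MMP-2. Members were taken by symbol: every gene named PCDHA, PCDHB, PCDHGA, PCDHGB or PCDHGC followed by a number, together with PCDHAC1 and PCDHAC2, and none whose symbol ends in P. The rule found 55 of the 55882 genes counted, with 16 in the alpha cluster, 18 in the beta cluster and 21 in the gamma cluster, all on the plus strand of chromosome 5. PCDHA14, PCDHB17 and PCDHB18 are annotated as transcribed pseudogenes, and PCDHGB5 was not analysed here.

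Clustered protocadherins are cell-surface adhesion molecules of the cadherin superfamily that bind an identical partner on the facing cell. They are best known in neurons, where each cell switches on a small, largely random set of promoters and so acquires a surface identity. In the alpha and gamma clusters each variable first exon, with a promoter of its own, is spliced to constant exons shared by the whole cluster, whereas each beta gene is a complete gene in a single coding exon. Most of these promoters hold a conserved sequence element bound by CTCF, which together with cohesin loops the chosen promoter to a distant enhancer, and DNA methylation keeps the others silent.

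Each of the 27 libraries came from U2OS cells transduced with lentivirus and selected as puromycin-resistant populations, so the control cells too carried an integrated vector. The pLKO.1 control, labelled WT, held the blank vector, and MMP2sh1 (labelled MMP2KD_23) and MMP2sh2 (labelled MMP2KD_26) each expressed a different hairpin RNA against MMP2. Every line was harvested subconfluent on day −2 (labelled proliferating), confluent on day 0 and overconfluent on day 2, with 3 libraries of polyadenylated RNA per line and stage. Comparisons between a knockdown line and control therefore rest on 1 transduced population per hairpin, and the 3 libraries measure the spread between cultures of that population.

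Gene counts summed to between 33580129 and 59374327 per library, with a median of 40075178. Of these, 1412 to 2908 reads fell on alpha members, 2722 to 11131 on beta members and 1337 to 3699 on gamma members. MMP2 was at 222 to 496 CPM (gene counts scaled to library size with TMM factors) in the 9 control libraries, at 34.0 to 100 in those of MMP2sh1 and at 136 to 291 in those of MMP2sh2, and within each stage the lines did not overlap. The osteoblast-lineage markers COL1A1, SPARC and RUNX2 lay at 1004 to 1486, 1182 to 2074 and 30.0 to 63.7 CPM over the 27 libraries, whereas COL1A2 and TWIST1 did not pass 0.683 and 0.0331 CPM. Of the 7 neuronal markers, TUBB3 lay at 80.4 to 272 CPM, NEFL at 19.9 to 98.6, RBFOX3 at 2.33 to 21.9, SNAP25 at 6.17 to 12.7, MAP2 at 3.00 to 16.9 and SYT1 at 1.29 to 4.501, and STMN2 did not pass 0.196. Their summed level was lower in overconfluent than in subconfluent cells of each line, with means of 145 against 360 CPM in control, 148 against 366 in MMP2sh1 and 142 against 370 in MMP2sh2, while that of the clusters was higher. The 4 epithelial markers summed to 229 to 576 CPM, with KRT8 at 225.8 to 569, and CDH1 and KRT19 did not pass 2.54 and 0.256. Their sum had means of 359, 558 and 483 CPM in subconfluent control, MMP2sh1 and MMP2sh2 cells, 331, 347 and 366 in confluent ones and 239.5, 258 and 249 in overconfluent ones. The 4 glial markers summed to 7.39 to 11.2 CPM, with OLIG2 at 6.70 to 10.8, the 4 blood markers to at most 1.56, and the endothelial marker CDH5 did not pass 0.605. The part of these cell-type markers in the values below was not tested.

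To show what the promoters have in common, the stretch of 8 letters that recurs in most members of each cluster was sought on both strands of the RefSeq promoter sequences, which run on assembly GRCh38.p14 from 250 bases before to 50 after each gene start. Of the stretches found in the most members of a cluster, the one rarest among all promoters was taken. A high share in the cluster beside a low share of all promoters therefore follows in part from this choice. Promoters were listed for 46 of the 55 members. GTGGCGCT, or its reverse complement AGCGCCAC, was found in 13 of the 14 listed beta promoters, against 1.15% of all 35116 promoters of the table. Windows of 60 bases around it are shown for 8 beta members called lower in MMP2sh1, for PCDHB5 (the highest of the cluster) and for PCDHB1 (almost silent, and the listed beta promoter without a match, shown from 90 to 31 bases before its start). Capitals mark the match.
PCDHB2 (chr5:141094536-141094595, plus strand): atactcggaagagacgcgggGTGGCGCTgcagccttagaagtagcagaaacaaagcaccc
PCDHB8 (chr5:141177769-141177828, plus strand): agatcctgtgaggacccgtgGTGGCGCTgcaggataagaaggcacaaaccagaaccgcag
PCDHB16 (chr5:141182302-141182361, plus strand): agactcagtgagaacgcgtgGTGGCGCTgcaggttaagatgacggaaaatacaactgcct
PCDHB10 (chr5:141192291-141192350, plus strand): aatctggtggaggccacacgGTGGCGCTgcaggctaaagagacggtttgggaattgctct
PCDHB12 (chr5:141208635-141208694, plus strand): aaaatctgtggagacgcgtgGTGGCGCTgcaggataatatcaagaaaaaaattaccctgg
PCDHB13 (chr5:141213857-141213916, plus strand): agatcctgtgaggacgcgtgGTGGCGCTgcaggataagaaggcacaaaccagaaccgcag
PCDHB14 (chr5:141223255-141223314, plus strand): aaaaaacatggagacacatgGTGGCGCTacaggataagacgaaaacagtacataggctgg
PCDHB15 (chr5:141245306-141245365, plus strand): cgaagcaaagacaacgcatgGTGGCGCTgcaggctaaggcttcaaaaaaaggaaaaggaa
PCDHB5 (chr5:141135171-141135230, plus strand): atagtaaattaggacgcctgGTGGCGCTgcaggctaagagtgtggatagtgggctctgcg
PCDHB1 (chr5:141051284-141051343, plus strand): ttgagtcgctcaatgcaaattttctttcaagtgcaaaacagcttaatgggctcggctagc

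The match lay between 1 and 83 bases before the listed gene start in the 13 beta promoters. The windows of PCDHB8 and PCDHB13 differed at 1 base. In the alpha cluster, ATGTCGCT or its reverse complement AGCGACAT was found in 9 of 13 listed promoters and in 0.234% of all, and in the gamma cluster GCCGCTGT or ACAGCGGC in 10 of 19 and in 1.63% of all. None of these 3 elements was found in a listed promoter of either other cluster. Only exact matches were sought. Windows are shown for alpha and gamma members with the highest levels per length, with that of PCDHA11, which held no exact match, again from 90 to 31 bases before the start. A stretch of the PCDHA11 window (gtgtcgct) differs from ATGTCGCT at 1 base.
PCDHA6 (chr5:140827889-140827948, plus strand): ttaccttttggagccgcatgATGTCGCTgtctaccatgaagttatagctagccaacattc
PCDHA12 (chr5:140875236-140875295, plus strand): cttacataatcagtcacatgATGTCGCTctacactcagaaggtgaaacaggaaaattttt
PCDHA11 (chr5:140868867-140868926, plus strand): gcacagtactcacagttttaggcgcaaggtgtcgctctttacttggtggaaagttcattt
PCDHGC3 (chr5:141475874-141475933, plus strand): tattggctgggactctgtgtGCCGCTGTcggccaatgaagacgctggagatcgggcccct
PCDHGB1 (chr5:141350019-141350078, plus strand): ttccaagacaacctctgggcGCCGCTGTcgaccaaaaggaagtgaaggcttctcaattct
PCDHGB4 (chr5:141387611-141387670, plus strand): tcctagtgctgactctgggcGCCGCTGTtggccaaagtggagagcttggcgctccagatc

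A match is a description of the letters in the window and does not show binding. At the level of RNA, a few members carried most of the reads of each cluster. Reads on exons that several members share were left uncounted by the union rule used upstream, so levels between genes were compared per kilobase of exon that no other gene overlaps. PCDHB5 was the highest member at 19.8 CPM per kb averaged over 27 libraries, followed in the beta cluster by PCDHB8 at 5.03 and PCDHB11 at 3.88. In the gamma cluster PCDHGC3, a C-type member, reached 12.1 CPM per kb, ahead of PCDHGB1 at 1.46 and PCDHGB4 at 1.38. PCDHA6 led the alpha cluster at 5.89 CPM per kb, with PCDHA12 at 2.80 and PCDHA11 at 2.66.

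At the other end, PCDHB1 had 33 reads over all 27 libraries, PCDHGA12 had 77, and PCDHA14 had 0. The last has no exon base that another gene does not overlap, so that value says nothing of its transcription, and a count of 0 allows up to 3 reads, or 0.0505 to 0.0893 CPM depending on the library. PCDHA4, PCDHA9 and PCDHA10 have long annotated forms that enlarge their own exon length and lower their level per length. Within the alpha cluster PCDHA6 made up 25.2 to 33.2% of the summed CPM of the 9 groups, within the beta cluster PCDHB5 made up 34.8 to 53.5%, and within the gamma cluster PCDHGC3 made up 62.3 to 72.9%.

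Levels of the members not given library by library further on are stated as the lowest and highest of the 27 libraries, per gene and not per length. In the alpha cluster the members that passed 4 CPM in some library ran from 2.52 to 7.01 CPM for PCDHA4, 1.09 to 4.33 CPM for PCDHA5 and 1.95 to 5.15 CPM for PCDHAC2. The weaker alpha members ran from 0.468 to 2.78 CPM for PCDHA1, 0.183 to 1.74 CPM for PCDHA2, 0.406 to 3.15 CPM for PCDHA3, 1.10 to 3.68 CPM for PCDHA7, 0.0813 to 1.38 CPM for PCDHA8, 0.224 to 1.32 CPM for PCDHA9, 0.268 to 1.98 CPM for PCDHA10, 0.320 to 1.73 CPM for PCDHA13 and 1.40 to 3.62 CPM for PCDHAC1. The beta members ran from 0 to 0.188 CPM for PCDHB1, 0.119 to 1.55 CPM for PCDHB3, 0.325 to 4.04 CPM for PCDHB4, 0.568 to 4.82 CPM for PCDHB6, 2.43 to 9.05 CPM for PCDHB17, 0.0488 to 2.33 CPM for PCDHB7, 1.04 to 8.23 CPM for PCDHB9 and 0.379 to 5.997 CPM for PCDHB15. Of the gamma members, those that passed 2 CPM in some library ran from 0.653 to 2.99 CPM for PCDHGA4, 0.166 to 2.06 CPM for PCDHGA6, 0.189 to 2.71 CPM for PCDHGA10 and 0.0723 to 2.15 CPM for PCDHGC5. The others ran from 0.196 to 1.72 CPM for PCDHGA1, 0.195 to 1.80 CPM for PCDHGA2, 0 to 0.852 CPM for PCDHGA3, 0.279 to 1.49 CPM for PCDHGA5, 0.0215 to 1.19 CPM for PCDHGB3, 0.0279 to 1.20 CPM for PCDHGA7, 0.0256 to 0.629 CPM for PCDHGA8, 0.196 to 1.60 CPM for PCDHGA9, 0.108 to 1.76 CPM for PCDHGB6, 0 to 0.794 CPM for PCDHGB7, 0 to 0.385 CPM for PCDHGA11, 0 to 0.284 CPM for PCDHGA12 and 0 to 0.661 CPM for PCDHGC4.

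**Figure D1:**
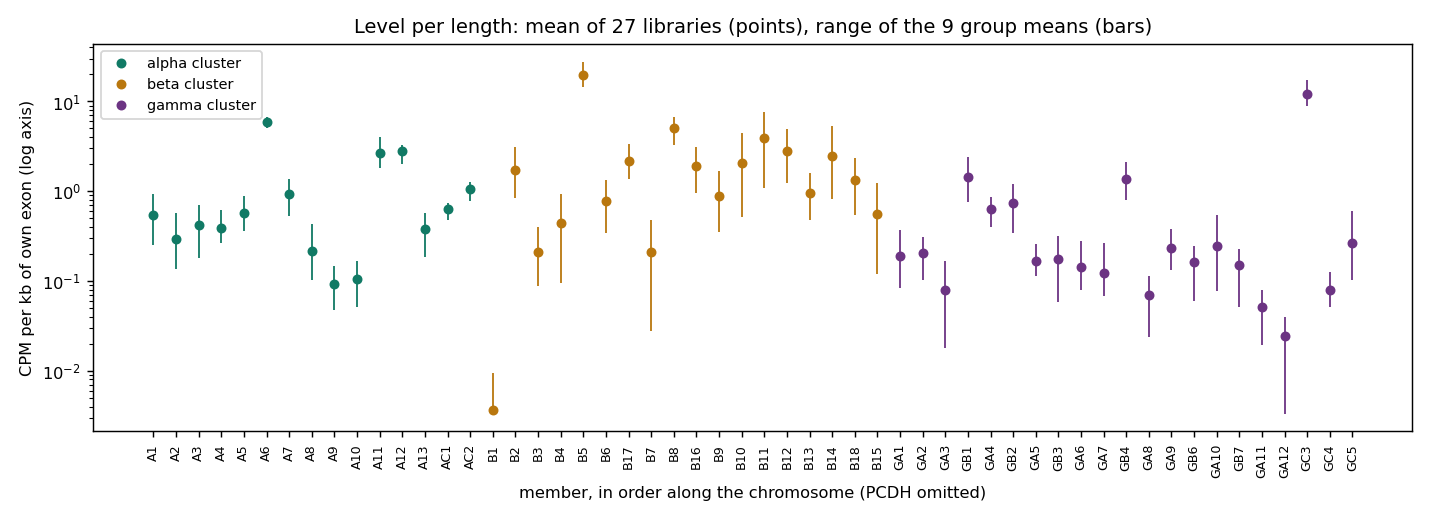
CPM per kb of own exon on a log axis for 54 members, in order along the chromosome. Points are means over 27 libraries and bars span the 9 group means, leaving out groups at 0. PCDHB5, PCDHGC3 and PCDHA6 stand highest, at 19.8, 12.1 and 5.89 CPM per kb.

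Members of a cluster resemble each other in sequence, which bears on how reads can be assigned. Of the windows of 150 bases, 1 read length, that lie in a member's own exons on GRCh37, some were found letter for letter elsewhere in the clusters for 6 alpha, 14 beta and 9 gamma members. The share was 19.9% for PCDHA7, which shares windows with PCDHA9, and 17.0% for PCDHB8, 14.8% for PCDHGB4, 12.1% for PCDHB2 and 11.4% for PCDHB10. It was 0.521% for PCDHB5, and no window of PCDHB16 or PCDHGC3 recurred. Reads that lie wholly in such a window may match more than 1 gene unless the mate lies outside it. Reads aligned to more than 1 place, 2.72 to 3.76% of all in each library, were left out of the counts. Members with a large share may thus be undercounted. By how much was not tested, and their values are to that extent uncertain.

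Summed over its members, the beta cluster was lower in MMP2sh1 than in control at all 3 stages, and more so in subconfluent and confluent cells than in overconfluent cells. In subconfluent cells the 3 control libraries summed to 119, 128 and 146 CPM and those of MMP2sh1 to 73.6, 101 and 104, a ratio of means of 0.71. In confluent cells control summed to 164, 176 and 167 and MMP2sh1 to 99.2, 108 and 120, a ratio of 0.64. In overconfluent cells the values were 278, 263 and 252 in control and 234, 236 and 220 in MMP2sh1, a ratio of 0.87. The libraries of MMP2sh1 and control did not overlap at any stage. In MMP2sh2 the sums were 112 ± 1.56, 128 ± 1.62 and 254 ± 11.7 CPM (mean ± SD, n = 3) at the successive stages, with ratios to control of 0.85, 0.76 and 0.96, and only the overconfluent libraries overlapped those of control. In bulk RNA, fewer cells that express a gene and less RNA per cell cannot be told apart.

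The alpha and gamma sums moved less. In confluent cells, the alpha cluster was at 54.8 ± 0.889 CPM in control, 40.1 ± 2.15 in MMP2sh1 and 48.5 ± 1.06 in MMP2sh2 (mean ± SD, n = 3), with no overlap between either knockdown line and control. The gamma cluster was at 53.9 ± 0.939, 40.4 ± 1.71 and 47.05 ± 3.35 CPM in the same order, again without overlap. In overconfluent cells the gamma sums were 83.7 ± 3.99, 82.4 ± 6.61 and 85.2 ± 2.28, differences within the spread between libraries. In MMP2sh1 the beta and gamma sums without their dominant member were farther below control: beta without PCDHB5 was at ratios of 0.57, 0.55 and 0.83 to control, and gamma without PCDHGC3 at 0.63, 0.55 and 0.94. In overconfluent MMP2sh2 cells the ratios were 0.98 for beta without PCDHB5, against 0.96 with it, and 1.11 for gamma without PCDHGC3, against 1.02 with it. Sums carry no test here.

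**Figure D2:**
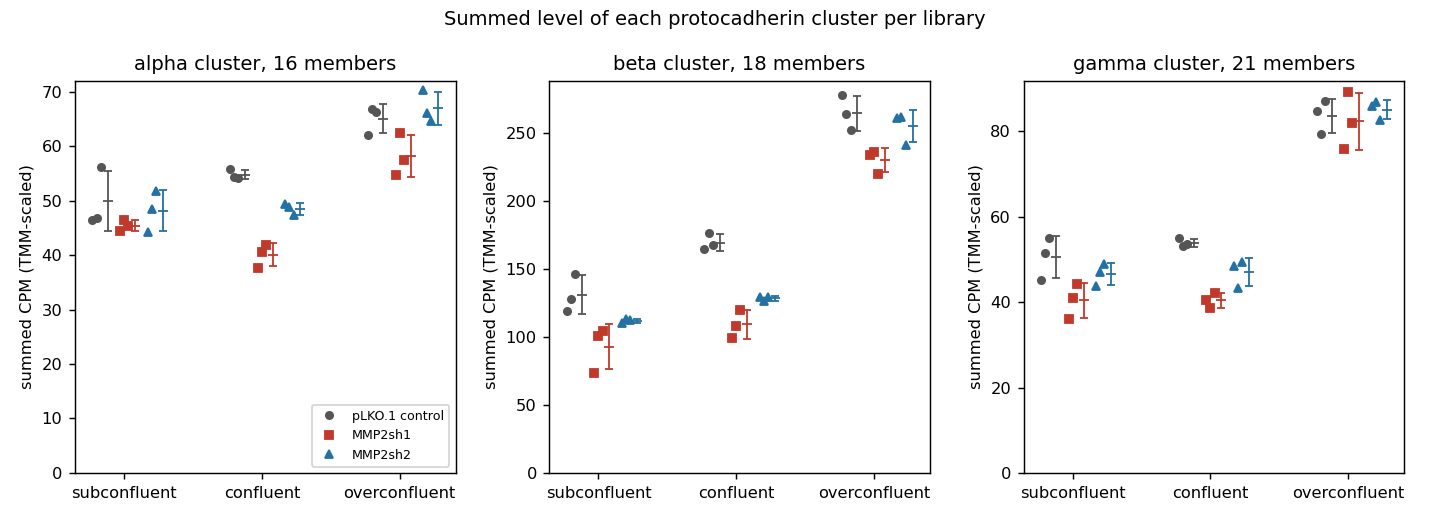
Summed TMM-scaled CPM of the 16 alpha, 18 beta and 21 gamma members in each library, by stage and line. Points are libraries, and the bar beside them is the mean with its SD (n = 3). The beta sums of MMP2sh1 lie below those of control at each stage, at 92.8 against 131, 109 against 169 and 230 against 264 CPM.

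Gene by gene, the calls in MMP2sh1 ran in 1 direction, and more beta than alpha or gamma members were called. The median library had 5999 reads on beta members, against 2186 on alpha and 2315 on gamma members, and low counts make a call harder. Each gene was tested against control at the same stage with edgeR's quasi-likelihood test over all genes that passed a filter on low counts, and was called at a Benjamini-Hochberg adjusted p under 0.05. In subconfluent cells 50 members passed the filter and 11 were called lower, where 6.14% of all genes tested were: 9 of 17 beta, 2 of 18 gamma and 0 of 15 alpha members (for alpha, 2 had an unadjusted p under 0.05 and 0 were called by DESeq2). In confluent cells 21 of 50 were called lower, against 8.58% of all genes, with 11 of 17 beta, 6 of 15 alpha and 4 of 18 gamma members. In overconfluent cells 8 of 49 were called lower, against 7.11% of all genes, and all 8 were beta members (at an unadjusted p under 0.05, 2 alpha and 1 gamma members were lower, and DESeq2 called 0 and 0). No member was called higher at any of the 3 stages by edgeR or by DESeq2, and 1 had an unadjusted p under 0.05, in overconfluent cells.

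The median log2 fold change of the beta members tested was −0.95, −0.91 and −0.33 at the successive stages, that of the gamma members −0.75, −0.81 and −0.06, and that of the alpha members −0.15, −0.65 and −0.11, while the median of all genes tested was within 0.0023 of 0. In confluent cells 49 of the 50 members tested had a fold change below 0. The exception was PCDHGC5 at 0.33 ± 0.54 (SE). The count in overconfluent cells depended on single libraries: it was 5 without control replicate 1 or control replicate 2 and 3 without MMP2sh1 replicate 3, and it was 2 when 1 spread was estimated over all 27 libraries.

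Along the chromosome, 5 beta members were called lower in MMP2sh1 at all 3 stages: PCDHB2, PCDHB8, PCDHB16, PCDHB10 and PCDHB12. A further 4 beta members, PCDHB11, PCDHB13, PCDHB14 and PCDHB18, and the gamma members PCDHGB2 and PCDHGB4 were called at 2 stages. On GRCh37, 9 beta members lie next to each other in the 59120 bases from PCDHB8 to PCDHB18, and 8 of them were called lower at 2 or more stages, against 1 of the 9 other beta members, PCDHB2. The exception in that stretch was PCDHB9, with log2 fold changes of 0.07 ± 0.26, −0.17 ± 0.21 and 0.15 ± 0.15. The stretch was delimited after the values were seen, and PCDHB8 and PCDHB18 at its ends are themselves members so called. Members outside it included PCDHB1, PCDHB3, PCDHB4 and PCDHB7, with 33, 791, 1877 and 857 reads in all. The share of all genes called lower at 2 or more stages was not counted. At the single stages 6.14, 8.58 and 7.11% of all genes were called lower in MMP2sh1.

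**Figure D3:**
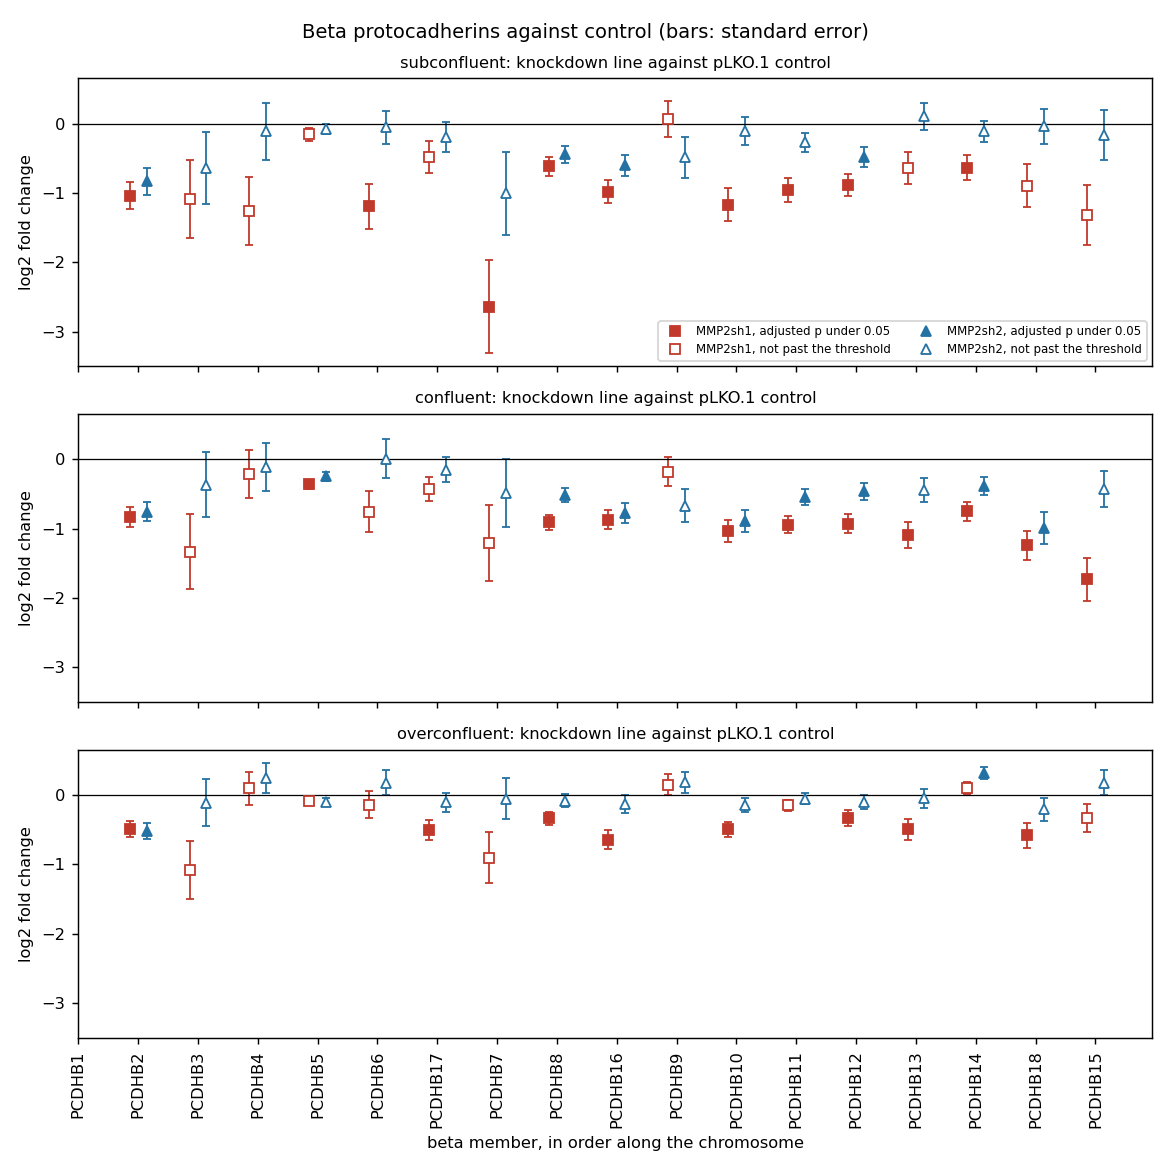
Log2 fold change of each beta member against control (y axis) in order along the chromosome (x axis), at the 3 stages, for MMP2sh1 (squares) and MMP2sh2 (triangles). Bars are standard errors, filled symbols passed an adjusted p of 0.05, and PCDHB1 was not tested. Most squares lie below 0, with PCDHB7 lowest in subconfluent cells at −2.64.

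PCDHB2 (chr5:140474191-140478287 on GRCh37), the beta gene nearest the alpha cluster apart from PCDHB1, was called lower in both knockdown lines at every stage. In subconfluent cells the 3 libraries of each line were at 6.44, 6.39 and 8.60 CPM in control, 2.62, 2.95 and 4.81 in MMP2sh1 and 4.94, 4.41 and 2.58 in MMP2sh2. In confluent cells they were at 9.29, 8.63 and 8.57 CPM in control, 3.92, 6.08 and 5.05 in MMP2sh1 and 6.15, 5.28 and 4.47 in MMP2sh2. In overconfluent cells they were at 12.5, 13.3 and 12.1 CPM in control, 8.36, 8.36 and 10.3 in MMP2sh1 and 9.60, 8.89 and 8.002 in MMP2sh2. All libraries of either knockdown line lay below all those of control at each stage. The log2 fold changes of MMP2sh1 were −1.04 ± 0.20 (SE, adjusted p = 7.8e-04), −0.83 ± 0.15 (adjusted p = 8.3e-05) and −0.48 ± 0.12 (adjusted p = 0.0042). Those of MMP2sh2 were −0.83 ± 0.19 (adjusted p = 0.0058), −0.75 ± 0.14 (adjusted p = 2.8e-04) and −0.51 ± 0.12 (adjusted p = 0.0027). The subconfluent call in MMP2sh2 was lost without control replicate 3 (−0.68), and the overconfluent calls of both lines were lost when 1 spread was estimated over all 27 libraries.

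PCDHB16 and PCDHB8, neighbors in the middle of the cluster, were called lower in MMP2sh1 at all 3 stages and in MMP2sh2 at the first 2. PCDHB16 (chr5:140561962-140565801) was at 6.68, 8.07 and 7.22 CPM in subconfluent control libraries, 3.16, 4.46 and 3.44 in MMP2sh1 and 4.89, 4.67 and 4.96 in MMP2sh2. In confluent cells the control libraries were nearly identical at 9.24, 9.23 and 9.21, and those of MMP2sh1 were at 4.51, 4.73 and 6.09 and of MMP2sh2 at 5.17, 6.57 and 4.63. In overconfluent cells the values were 14.1, 11.1 and 10.3 in control and 6.53, 8.95 and 7.25 in MMP2sh1, without overlap, and 13.8, 10.1 and 8.59 in MMP2sh2, which overlapped control. The log2 fold changes of MMP2sh1 were −0.98 ± 0.17, −0.87 ± 0.14 and −0.64 ± 0.14 (adjusted p = 2.4e-04, 1.8e-05 and 0.0012). Those of MMP2sh2 were −0.60 ± 0.15 and −0.77 ± 0.14 (adjusted p = 0.009 and 1.7e-04), of which the first was lost without control replicate 2 (−0.52).

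PCDHB8 (chr5:140557371-140560120) had 13.7, 13.6 and 17.8 CPM in subconfluent control libraries against 7.76, 9.91 and 11.6 in MMP2sh1 and 11.3, 12.5 and 9.29 in MMP2sh2. In confluent cells it had 17.9, 17.9 and 15.00 CPM in control, 8.33, 9.55 and 9.32 in MMP2sh1 and 11.9, 11.8 and 12.3 in MMP2sh2. In overconfluent cells it had 18.3, 19.7 and 17.5 CPM in control, 15.9, 13.8 and 14.4 in MMP2sh1 and 18.9, 16.7 and 16.97 in MMP2sh2. The libraries of MMP2sh1 lay below all those of control at each stage, and those of MMP2sh2 in subconfluent and confluent cells. In confluent MMP2sh1 cells the log2 fold change was −0.91 ± 0.10 (adjusted p = 7.0e-08). The subconfluent and overconfluent changes were −0.61 ± 0.13 and −0.33 ± 0.10 (adjusted p = 0.0029 and 0.017), and the latter was lost without any 1 of control replicate 2 and MMP2sh1 replicates 2 and 3 (−0.32 to −0.29). In MMP2sh2 the changes were −0.44 ± 0.12 and −0.51 ± 0.10 in subconfluent and confluent cells (adjusted p = 0.022 and 4.7e-04), the first of which was lost without any 1 of control replicate 3 and MMP2sh2 replicate 3 (−0.33 to −0.30).

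PCDHB10 (chr5:140571926-140575220) and PCDHB12 (chr5:140588269-140592143) were the other members called at all 3 stages in MMP2sh1. PCDHB10 was at 2.96, 3.55 and 5.09 CPM in subconfluent control libraries, 1.78, 1.68 and 1.66 in MMP2sh1 and 3.08, 3.64 and 4.02 in MMP2sh2. At confluence it was at 7.16, 7.45 and 6.58 CPM in control, 3.06, 3.47 and 3.92 in MMP2sh1 and 4.11, 3.41 and 4.08 in MMP2sh2. After confluence it was at 15.8, 13.5 and 14.3 CPM in control, 10.9, 10.2 and 9.96 in MMP2sh1 and 13.2, 13.9 and 12.3 in MMP2sh2. The libraries of MMP2sh1 were below those of control at each stage, with log2 fold changes of −1.17 ± 0.24, −1.03 ± 0.16 and −0.49 ± 0.11 (adjusted p = 0.0018, 8.3e-06 and 0.0014). In MMP2sh2 it was called lower in confluent cells alone, at −0.88 ± 0.16 (adjusted p = 1.2e-04), and was at −0.10 ± 0.21 and −0.14 ± 0.10 at the other stages.

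PCDHB12 was at 7.80, 8.17 and 10.5 CPM in subconfluent control libraries, 4.36, 4.38 and 5.59 in MMP2sh1 and 5.92, 5.73 and 7.39 in MMP2sh2. In confluent cells the values were 10.6, 13.01 and 11.7 CPM in control, 4.74, 6.95 and 7.12 in MMP2sh1 and 8.69, 9.22 and 7.997 in MMP2sh2. In overconfluent cells they were 22.7, 16.9 and 17.1 CPM in control, 15.98, 13.8 and 15.3 in MMP2sh1 and 17.5, 17.8 and 17.7 in MMP2sh2. MMP2sh1 lay below control without overlap at all 3 stages, with changes at the first 2 of −0.88 ± 0.16 and −0.93 ± 0.14 (adjusted p = 3.8e-04 and 5.3e-06). The overconfluent call, at −0.33 ± 0.11 (adjusted p = 0.039), was lost without any 1 of control replicate 1 and MMP2sh1 replicates 2 and 3 (−0.34 to −0.18), by DESeq2 and with the other fits that estimated the spread over all libraries or added the replicate number. In MMP2sh2 the changes were −0.48 ± 0.15 and −0.46 ± 0.12 (adjusted p = 0.035 and 0.0066), the first of them lost without any 1 of control replicates 2 and 3 and MMP2sh2 replicates 1 and 2 (−0.53 to −0.34) and the second without control replicate 2 (−0.38).

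PCDHB11, PCDHB14, PCDHB13 and the pseudogene PCDHB18 were called at 2 stages in MMP2sh1. PCDHB11 was at 8.12, 8.03 and 10.1 CPM in subconfluent control libraries, 3.27, 4.66 and 5.51 in MMP2sh1 and 6.29, 7.72 and 7.82 in MMP2sh2. At confluence it was at 13.98, 13.8 and 16.8 CPM in control, 7.24, 6.92 and 9.20 in MMP2sh1 and 11.6, 8.69 and 10.6 in MMP2sh2. After confluence it was at 31.3, 34.8 and 30.2 CPM in control, 27.1, 31.1 and 29.2 in MMP2sh1 and 33.2, 30.8 and 29.01 in MMP2sh2. MMP2sh1 and control were apart at the first 2 stages, with log2 fold changes of −0.95 ± 0.17 and −0.94 ± 0.12 (adjusted p = 3.6e-04 and 3.1e-07), and overlapped in overconfluent cells, at −0.14 ± 0.08. The libraries of MMP2sh2 also lay below control at the first 2 stages, with a call in confluent cells only (−0.54 ± 0.11, adjusted p = 9.8e-04).

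PCDHB14 was lower in MMP2sh1 in subconfluent and confluent cells, while its overconfluent libraries lay slightly above those of control. Its values were 6.11, 4.97 and 6.05 CPM in control, 2.95, 4.12 and 3.93 in MMP2sh1 and 5.30, 5.14 and 5.49 in MMP2sh2 when subconfluent. When confluent they were 8.66, 8.55 and 8.60 CPM in control, 5.21, 5.39 and 4.75 in MMP2sh1 and 6.51, 7.18 and 6.22 in MMP2sh2. When overconfluent they were 19.1, 18.5 and 18.6 CPM in control, 19.6, 20.4 and 20.2 in MMP2sh1 and 23.5, 23.4 and 23.6 in MMP2sh2, with every library of either knockdown line above every control library. The changes in MMP2sh1 were −0.64 ± 0.18, −0.75 ± 0.13 and 0.10 ± 0.09 (adjusted p = 0.019, 9.1e-05 and 0.53), and the first was lost without any 1 of control replicates 1 and 3 and MMP2sh1 replicate 1 (−0.60 to −0.51). In MMP2sh2 it was the only member called higher against control, at 0.33 ± 0.09 in overconfluent cells (adjusted p = 0.013), a call lost without any 1 of control replicates 2 and 3 and MMP2sh2 replicate 1 (0.32 to 0.33), and it was lower in confluent cells at −0.39 ± 0.13 (adjusted p = 0.043), a call lost without any 1 of control replicates 1, 2 and 3 and MMP2sh2 replicates 1, 2 and 3 (−0.45 to −0.35).

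PCDHB13 was at 3.08, 4.54 and 3.60 CPM in control, 2.27, 3.02 and 1.90 in MMP2sh1 and 3.69, 3.78 and 4.64 in MMP2sh2 in subconfluent cells. At confluence it was at 5.56, 6.44 and 4.34 CPM in control, 2.21, 2.73 and 2.82 in MMP2sh1 and 4.81, 3.30 and 4.08 in MMP2sh2. After confluence it was at 8.12, 7.95 and 8.03 CPM in control, 6.14, 6.44 and 4.57 in MMP2sh1 and 8.56, 7.20 and 7.58 in MMP2sh2. The libraries of MMP2sh1 lay below those of control at each stage, and those of MMP2sh2 overlapped them at each stage. The changes in MMP2sh1 were −1.09 ± 0.19 in confluent cells (adjusted p = 6.3e-05) and −0.49 ± 0.15 in overconfluent cells (adjusted p = 0.021), and the latter was lost without any 1 of control replicates 1, 2 and 3 and MMP2sh1 replicate 3 (−0.50 to −0.36). The subconfluent difference, −0.63 ± 0.23 (adjusted p = 0.075), missed the threshold.

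PCDHB18 was at 2.28, 3.17 and 1.67 CPM in control, 0.866, 1.27 and 1.68 in MMP2sh1 and 2.67, 2.32 and 1.98 in MMP2sh2 in subconfluent cells. In confluent cells it was at 4.87, 4.34 and 3.68 CPM in control, 2.08, 1.40 and 1.96 in MMP2sh1 and 2.15, 1.48 and 2.91 in MMP2sh2. In overconfluent cells it was at 5.19, 5.98 and 5.39 CPM in control, 4.56, 2.71 and 3.83 in MMP2sh1 and 5.85, 3.90 and 4.65 in MMP2sh2. MMP2sh1 lay below control at the last 2 stages, and MMP2sh2 in confluent cells. The confluent changes were −1.24 ± 0.21 in MMP2sh1 and −0.99 ± 0.22 in MMP2sh2 (adjusted p = 6.1e-05 and 0.0022), and the overconfluent change in MMP2sh1, −0.58 ± 0.18 (adjusted p = 0.031), was lost without any 1 of control replicates 2 and 3 and MMP2sh1 replicates 2 and 3 (−0.61 to −0.40).

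**Figure D4:**
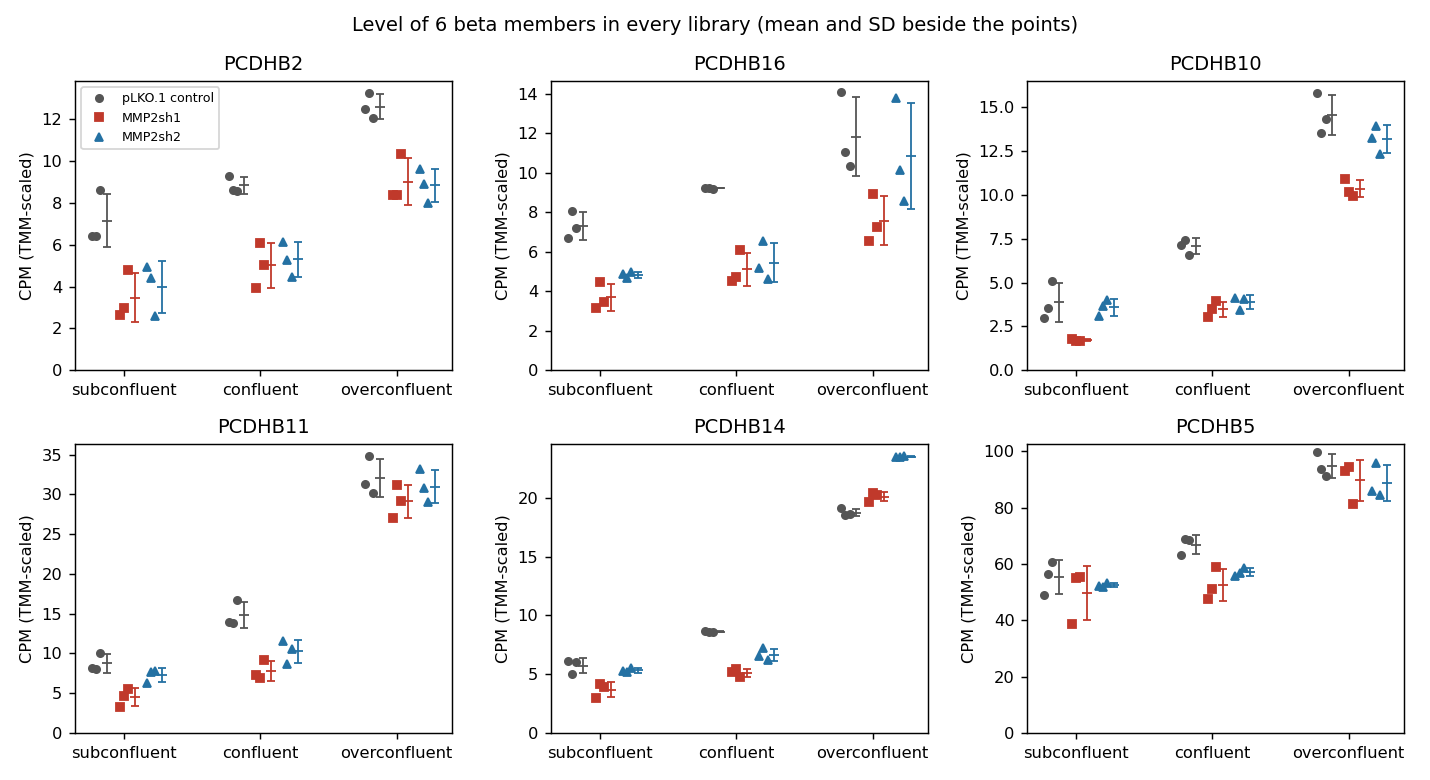
TMM-scaled CPM (y axis) of 6 beta members in every library by stage (x axis) and line. The bar beside the points is the mean with its SD (n = 3). PCDHB2 is lower in both knockdown lines at every stage. The knockdown libraries of PCDHB14 lie below control in confluent cells and above it in overconfluent cells, where only the change in MMP2sh2 was called. In confluent cells PCDHB5 has the smallest change of the 6 in log2 units, though not in CPM.

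The remaining beta calls in MMP2sh1 were at 1 stage. PCDHB15 had the largest called change of the confluent comparison, from 2.21, 2.56 and 2.17 CPM in control to 0.595, 0.911 and 0.594, at −1.73 ± 0.31 (adjusted p = 1.1e-04). PCDHB7, a member with 2 to 99 reads per library, was at −2.64 ± 0.68 in subconfluent cells (adjusted p = 0.01), and this call was lost without any 1 of control replicate 2 and MMP2sh1 replicate 3 (−2.40 to −2.31). PCDHB6 was at −1.19 ± 0.33 at that stage (adjusted p = 0.017), lost without any 1 of control replicate 3 and MMP2sh1 replicate 1 (−1.01 to −0.89). The pseudogene PCDHB17 was at −0.51 ± 0.14 in overconfluent cells (adjusted p = 0.015), lost without any 1 of control replicate 1 and MMP2sh1 replicate 3 (−0.44 to −0.42).

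PCDHB5, the highest member, had the smallest change, in log2 units, of the beta genes called in confluent cells. Its control libraries were at 49.00, 56.5 and 60.7 CPM in subconfluent cells, 63.02, 68.9 and 68.6 in confluent cells and 99.6, 93.5 and 91.2 in overconfluent cells. Those of MMP2sh1 were at 38.8, 54.9 and 55.3 when subconfluent, 47.7, 51.05 and 58.8 when confluent and 93.1, 94.4 and 81.3 when overconfluent. Those of MMP2sh2 were at 52.2, 51.8 and 53.3, then at 55.7, 56.8 and 58.5 and then at 85.7, 95.9 and 84.3. Only the confluent groups did not overlap, with changes of −0.36 ± 0.06 in MMP2sh1 and −0.25 ± 0.06 in MMP2sh2 (adjusted p = 9.3e-05 and 0.0032), and the changes at the other stages were between −0.15 and −0.08. The second call was lost when 1 spread was estimated over all 27 libraries.

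In the gamma cluster, PCDHGB4 and PCDHGB2 were lower in MMP2sh1 at 2 stages. PCDHGB4 was at 3.62, 3.69 and 4.06 CPM in subconfluent control libraries, 2.03, 1.90 and 2.39 in MMP2sh1 and 2.46, 2.48 and 1.50 in MMP2sh2. In confluent cells the values were 4.24, 3.89 and 3.92 CPM in control, 2.26, 1.995 and 1.57 in MMP2sh1 and 1.48, 3.80 and 3.15 in MMP2sh2. In overconfluent cells they were 5.79, 4.63 and 5.20 CPM in control, 3.03, 5.34 and 3.45 in MMP2sh1 and 4.35, 5.55 and 4.04 in MMP2sh2. Knockdown libraries lay below control at the first 2 stages and overlapped it at the third. The changes in MMP2sh1 were −0.85 ± 0.22 and −1.03 ± 0.21 (adjusted p = 0.0098 and 4.6e-04), and in MMP2sh2 the subconfluent change was −0.81 ± 0.22 (adjusted p = 0.02), lost without any 1 of control replicates 1 and 3 and MMP2sh2 replicate 3 (−0.84 to −0.62).

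PCDHGB2 was at 2.20, 2.04 and 1.49 CPM in subconfluent control libraries, 1.19, 0.819 and 0.683 in MMP2sh1 and 1.49, 2.01 and 1.64 in MMP2sh2. In confluent cells the values were 2.16, 1.80 and 1.997 CPM in control, 1.24, 1.28 and 0.386 in MMP2sh1 and 1.15, 1.87 and 2.17 in MMP2sh2. In overconfluent cells they were 2.24, 2.65 and 3.31 CPM in control, 1.32, 2.56 and 2.66 in MMP2sh1 and 4.28, 3.03 and 2.31 in MMP2sh2. Only MMP2sh1 separated from control, at the first 2 stages, with changes of −1.10 ± 0.33 and −1.01 ± 0.34 (adjusted p = 0.03 and 0.035). The subconfluent call was lost without any 1 of control replicates 1 and 2 and MMP2sh1 replicates 2 and 3 (−1.05 to −0.94), and the confluent call without any 1 of control replicates 1 and 3 and MMP2sh1 replicate 3 (−1.01 to −0.66).

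PCDHGB1, with 2.84, 2.58 and 3.95 CPM in control, 0.595, 2.61 and 2.68 in MMP2sh1 and 2.60, 2.78 and 3.12 in MMP2sh2 in subconfluent cells, was called in confluent cells only. There it was at 3.53, 4.06 and 3.48 CPM in control, 2.17, 1.80 and 2.32 in MMP2sh1 and 2.68, 2.29 and 3.52 in MMP2sh2, a change of −0.82 ± 0.21 in MMP2sh1 (adjusted p = 0.0049). In overconfluent cells it was at 6.64, 6.16 and 4.59 CPM in control, 5.64, 5.68 and 5.32 in MMP2sh1 and 7.23, 5.64 and 5.67 in MMP2sh2, and the lines overlapped. PCDHGA1 was also called in confluent MMP2sh1 cells, at −1.60 ± 0.47 (adjusted p = 0.016), and its call was lost without any 1 of control replicate 1 and MMP2sh1 replicate 1 (−1.50 to −1.28).

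PCDHGC3, the highest gamma member, was not called against control at any stage. In subconfluent cells its libraries were at 29.4, 34.4 and 35.6 CPM in control, 26.1, 30.1 and 32.3 in MMP2sh1 and 27.5, 30.9 and 33.7 in MMP2sh2. In confluent cells they were at 31.99, 33.1 and 35.6 CPM in control, 27.9, 27.8 and 32.00 in MMP2sh1 and 33.04, 27.2 and 32.6 in MMP2sh2. In overconfluent cells they were at 57.03, 53.3 and 58.98 CPM in control, 53.6, 60.1 and 56.1 in MMP2sh1 and 53.1, 56.2 and 55.5 in MMP2sh2. All groups of a stage overlapped, and the 6 changes against control lay between −0.20 and 0.00 with standard errors of 0.07 to 0.09. The closest to a call was that of confluent MMP2sh1 cells (adjusted p = 0.051).

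Alpha members were called in confluent cells alone. In MMP2sh1 these were PCDHA1 at −1.66 ± 0.32, PCDHA10 at −1.71 ± 0.39, PCDHA7 at −0.89 ± 0.27, PCDHAC1 at −0.65 ± 0.23, PCDHA12 at −0.50 ± 0.14 and PCDHA11 at −0.40 ± 0.14. Of the 6 calls, those of PCDHA1 and PCDHA10 held in every alternative. PCDHA1 was at 2.16, 1.87 and 2.44 CPM in confluent control libraries, 0.744, 0.468 and 0.831 in MMP2sh1 and 0.867, 0.754 and 0.635 in MMP2sh2, and was the 1 alpha member called in MMP2sh2, at −1.53 ± 0.32 (adjusted p = 9.0e-04). The other calls were lost without single libraries: PCDHA7 without any 1 of control replicate 1 and MMP2sh1 replicates 1 and 3 (−0.85 to −0.81), PCDHA12 without any 1 of control replicate 3 and MMP2sh1 replicate 2 (−0.46 to −0.44), PCDHA11 without any 1 of control replicates 1, 2 and 3 and MMP2sh1 replicates 1 and 2 (−0.43 to −0.32), and PCDHAC1 without any 1 of control replicates 1 and 2 and MMP2sh1 replicates 1, 2 and 3 (−0.76 to −0.51).

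Of the 3 highest alpha members, PCDHA6 was never called against control. In subconfluent cells it was at 12.98, 14.3 and 16.02 CPM in control, 11.5, 13.5 and 12.8 in MMP2sh1 and 12.4, 13.1 and 14.02 in MMP2sh2. At confluence it was at 14.3, 14.5 and 14.3 CPM in control, 12.3, 14.2 and 13.4 in MMP2sh1 and 15.99, 13.9 and 15.8 in MMP2sh2. After confluence it was at 15.4, 17.8 and 17.8 CPM in control, 16.5, 16.5 and 14.96 in MMP2sh1 and 18.2, 16.7 and 15.8 in MMP2sh2. It was called higher in overconfluent than in subconfluent cells of each line, by 0.25 ± 0.10 in control, 0.34 ± 0.11 in MMP2sh1 and 0.37 ± 0.10 in MMP2sh2. PCDHA11 was at 6.68, 6.63 and 10.99 CPM in control, 8.22, 6.38 and 6.51 in MMP2sh1 and 7.76, 7.01 and 9.01 in MMP2sh2 in subconfluent cells. At confluence it was at 7.71, 7.50 and 8.57 CPM in control, 5.42, 5.71 and 7.07 in MMP2sh1 and 6.04, 6.79 and 5.93 in MMP2sh2, and after it at 11.3, 14.1 and 11.1 CPM in control, 10.2, 11.7 and 12.3 in MMP2sh1 and 14.4, 12.5 and 13.5 in MMP2sh2. It was thus highest in the overconfluent libraries of each line.

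PCDHA12 was not called higher with the stage in any line. In subconfluent cells it was at 7.99, 8.19 and 8.51 CPM in control, 8.30, 6.96 and 8.004 in MMP2sh1 and 7.83, 8.45 and 9.01 in MMP2sh2. In confluent cells it was at 7.36, 6.62 and 7.96 CPM in control, 5.09, 4.92 and 5.55 in MMP2sh1 and 7.97, 7.77 and 5.61 in MMP2sh2. In overconfluent cells it was at 6.58, 7.16 and 6.38 CPM in control, 4.69, 7.95 and 6.01 in MMP2sh1 and 7.84, 8.79 and 8.26 in MMP2sh2. The confluent libraries of MMP2sh1 lay below those of control and the overconfluent ones of MMP2sh2 above them, the latter without a call (0.31 ± 0.13, adjusted p = 0.2). Within MMP2sh1 the fall from subconfluent to confluent cells was −0.58 ± 0.14 (adjusted p = 0.0029).

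In MMP2sh2, whose MMP2 was reduced less, fewer members were called, most of them beta members in confluent cells. In subconfluent cells 5 of 51 members tested were called lower, where 6.33% of all genes were: PCDHB2, PCDHB8, PCDHB12, PCDHB16 and PCDHGB4. In confluent cells 11 of 48 were called lower, against 5.81% of all genes, with 9 of 17 beta members, PCDHA1 and PCDHGA8. In overconfluent cells 1 of 49 was called lower and 1 higher, against 3.43% and 2.89% of all genes. Neither share of members exceeded that of all genes in overconfluent cells. The median log2 fold change of beta members was −0.19, −0.46 and −0.08 at the successive stages, that of alpha members −0.03, −0.25 and 0.03, and that of gamma members −0.11, −0.33 and 0.09.

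The count in subconfluent cells fell to 2 without control replicate 3, with 1 member lower and 1 higher, and to 3 without MMP2sh2 replicate 3, and that in overconfluent cells to 1 without control replicate 2, control replicate 3 or MMP2sh2 replicate 1. No member was called higher in subconfluent or confluent cells by edgeR or DESeq2, and none had an unadjusted p under 0.05 in that direction (0 of 51 and 0 of 48). PCDHGA8, with 1 to 26 reads per library, was at −2.05 ± 0.70 in confluent cells (adjusted p = 0.047), and that call was lost without any 1 of control replicates 1, 2 and 3 and MMP2sh2 replicates 1, 2 and 3 (−2.35 to −1.77). The control libraries were common to the comparisons of both hairpins, so the calls they share are not independent.

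Set against each other, the knockdown lines differed in few members, and every one of them was lower in MMP2sh1. Members called lower in MMP2sh1 than in MMP2sh2 numbered 5 of 48 in subconfluent cells, 8 of 46 in confluent cells and 2 of 52 in overconfluent cells, where 5.69%, 9.62% and 3.27% of all genes were. None was called higher by edgeR or DESeq2, and 1 had an unadjusted p under 0.05 in that direction, in confluent cells. PCDHB10 differed most clearly in subconfluent cells, at −1.07 ± 0.24 (adjusted p = 0.0034), and PCDHB15 in confluent cells, at −1.30 ± 0.35 (adjusted p = 0.0062), and these were the 2 calls of 15 that held in every alternative. PCDHB15 at 0.595, 0.911 and 0.594 CPM in MMP2sh1 lay below the 2.01, 1.70 and 1.51 of MMP2sh2 and the control values given above. PCDHB16 differed in overconfluent cells at −0.52 ± 0.16 (adjusted p = 0.041), a call lost without any 1 of MMP2sh1 replicates 1 and 3 and MMP2sh2 replicates 1 and 2 (−0.57 to −0.31).

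These counts rested on single libraries too. In subconfluent cells the count was 2 without MMP2sh1 replicate 1 or MMP2sh2 replicate 2 and 3 without MMP2sh2 replicate 1 or 3. In confluent cells it was 2 without MMP2sh1 replicate 1, 5 without MMP2sh1 replicate 2 and 3 without MMP2sh2 replicate 1, and in overconfluent cells it was 1 without MMP2sh1 replicate 3 and 0 without MMP2sh2 replicate 1 or 2.

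The clusters rose with expansion of the culture, the beta cluster most. From subconfluent to overconfluent control cells 31 of 50 members tested were called higher and 0 lower, where 28.1% of all genes were called higher. The 31 comprised all 17 beta members tested, 8 of 15 alpha and 6 of 18 gamma members. The median log2 fold change was 1.11 in the beta, 0.61 in the alpha and 0.60 in the gamma cluster, and 0.03 over all genes. The summed CPM of the beta cluster rose from 131 ± 14.2 to 264 ± 12.9 (mean ± SD, n = 3), a ratio of 2.02, against 1.30 for alpha and 1.66 for gamma. For the decrease, 1 member had an unadjusted p under 0.05 and DESeq2 called 0.

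Most of this rise came after confluence. Between subconfluent and confluent control cells 11 of 51 members were called higher, against 16.4% of all genes, 9 of them beta members together with PCDHA2 and PCDHA3, and the count was 7 without control subconfluent replicate 1. Between confluent and overconfluent control cells 22 of 49 were called higher, against 21.3% of all genes, with 14 of 17 beta, 4 of 15 alpha and 4 of 17 gamma members. The sum of the gamma cluster was 50.6 ± 5.005, 53.9 ± 0.939 and 83.7 ± 3.99 CPM at the 3 stages, so that only the later step exceeded the spread between libraries.

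Members of the beta cluster rose by unequal amounts. PCDHB10 rose most in control, at 1.94 ± 0.15 (SE, adjusted p = 2.0e-11), followed by PCDHB11 at 1.89 ± 0.10 (adjusted p = 3.8e-15) and PCDHB15 at 1.86 ± 0.25 (adjusted p = 3.9e-07). PCDHB14 rose by 1.72 ± 0.11 (adjusted p = 4.1e-13). PCDHB5 rose by 0.78 ± 0.07 (adjusted p = 6.7e-11), so that its share of the cluster sum went from 42.3 to 35.9%. The smallest called rise, 0.31 ± 0.10 in PCDHB8 (adjusted p = 0.013), was lost without any 1 of control subconfluent replicates 1 and 2 and control overconfluent replicate 2 (0.24 to 0.26).

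Of the 15 alpha members tested, 8 were called higher in control. PCDHA2, PCDHA3, PCDHA5, PCDHA4 and PCDHA9 rose by 2.06 ± 0.44, 1.85 ± 0.28, 1.31 ± 0.25, 1.19 ± 0.17 and 1.16 ± 0.48 (adjusted p = 2.4e-04, 3.3e-06, 7.5e-05, 1.2e-06 and 0.044), and PCDHA1, PCDHA11 and PCDHA6 by 0.74 ± 0.26, 0.61 ± 0.15 and 0.25 ± 0.10 (adjusted p = 0.017, 0.0013 and 0.038). The 7 not called were PCDHA7, PCDHA8, PCDHA10, PCDHA12, PCDHA13, PCDHAC1 and PCDHAC2, with log2 fold changes from −0.53 ± 0.37 to 0.86 ± 0.47. In the gamma cluster PCDHGC3 rose by 0.78 ± 0.07 (adjusted p = 4.5e-10) and PCDHGC5, another C-type member, by 2.01 ± 0.41 (adjusted p = 1.4e-04). PCDHGC3 supplied 65.5 to 67.4% of the gamma sum at those stages.

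Both knockdown lines showed the same direction of change. In MMP2sh1 32 of 50 members were called higher and 0 lower from subconfluent to overconfluent cells, against 27.3% of all genes called higher (0 had an unadjusted p under 0.05 for a decrease and DESeq2 called 0), and in MMP2sh2 35 of 50 were called higher and 1, PCDHAC2, lower, against 27.7% and 27.1%. PCDHAC2 was at −0.58 ± 0.23 in MMP2sh2 (adjusted p = 0.031), a call lost without any 1 of MMP2sh2 subconfluent replicate 2 and MMP2sh2 overconfluent replicate 2 (−0.42 to −0.40) and by DESeq2, which called 0 members lower. Over the 3 lines, 16 beta, 5 alpha and 5 gamma members were called higher in each. The share of all genes called higher in all 3 lines was not counted, so these counts cannot be set against it. The largest rises in MMP2sh1 were 3.16 ± 0.66 in PCDHB7, 3.09 ± 0.34 in PCDHB4 and 2.85 ± 0.32 in PCDHB15 (adjusted p = 2.6e-04, 5.5e-08 and 5.1e-08). The beta sum rose 2.48-fold in MMP2sh1 and 2.28-fold in MMP2sh2.

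In the knockdown lines too, most of the rise fell after confluence. Up to confluence the median log2 fold change of the beta members tested was 0.42 in MMP2sh1 and 0.32 in MMP2sh2, against 0.43 in control. From subconfluent to confluent cells MMP2sh1 had 4 members called higher, all beta members, and 2 lower, PCDHA12 at −0.58 ± 0.14 and PCDHAC1 at −0.66 ± 0.23, against 15.0% and 17.7% of all genes. MMP2sh2 had 2 higher and 2 lower, the latter PCDHGA8 at −2.01 ± 0.69 and PCDHGA9 at −1.44 ± 0.49, against 13.9% and 16.4%. Those counts, of 47 members tested in each line, moved with the libraries left out, to 3 without MMP2sh1 confluent replicate 3 and to 1 or 2 without any 1 of the 6 libraries of MMP2sh2. From confluent to overconfluent cells 36 of 51 members were called higher in MMP2sh1, against 23.1% of all genes, and 0 lower by edgeR, DESeq2 or an unadjusted p under 0.05. In MMP2sh2 34 of 48 were called higher and 1, PCDHAC2, lower, against 22.5% and 23.0%.

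**Figure D5:**
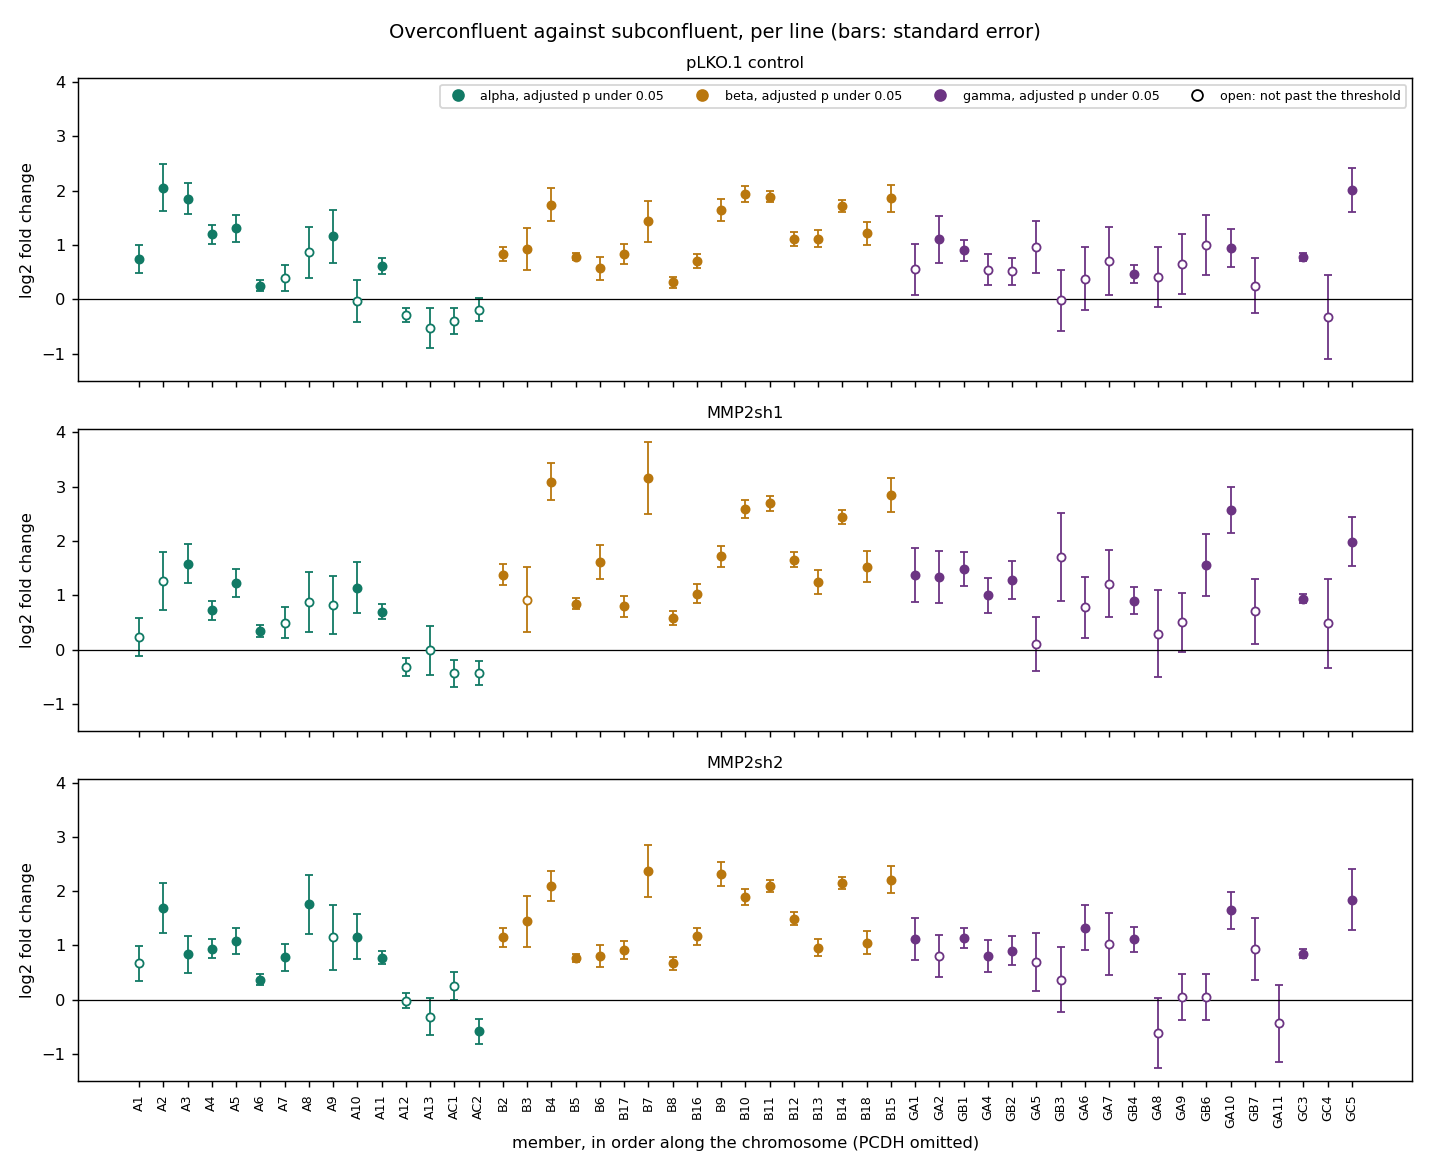
Log2 fold change from subconfluent to overconfluent cells (y axis) for each member tested, in order along the chromosome (x axis), in the 3 lines. Bars are standard errors, filled points passed an adjusted p of 0.05 and open points did not. The beta points lie above 0 in every line, with medians of 1.11, 1.61 and 1.45 in control, MMP2sh1 and MMP2sh2.

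Whether the rise differed between a knockdown line and control was tested as an interaction of line and stage. In MMP2sh1 2 of 52 members were called with a larger rise, a share no higher than the 4.52% of all genes, and 0 with a smaller one (0 also by DESeq2 and at an unadjusted p under 0.05). These were PCDHB11, whose rise exceeded that of control by 0.81 ± 0.17 (adjusted p = 0.0034), and PCDHB14, by 0.73 ± 0.17 (adjusted p = 0.0062). Of the 17 beta members tested, 16 had an interaction term above 0, with a median of 0.55, 9 had an unadjusted p under 0.05 for a larger rise and 2 were called. Some of these terms were smaller than their standard error, as in PCDHB3 at 0.004 ± 0.38 and PCDHB5 at 0.07 ± 0.13. In MMP2sh2 0 of 52 members were called higher, against 2.71% of all genes, and 0 lower. DESeq2 called 0 as well, 8 members had an unadjusted p under 0.05 for a larger rise and 1 for a smaller, and the beta median was 0.35. The counts were 4 in MMP2sh1 without MMP2sh1 subconfluent replicate 3 or MMP2sh1 overconfluent replicate 1, and 1 in MMP2sh2 without control subconfluent replicate 2 or MMP2sh2 subconfluent replicate 3.

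Factors that organize or silence the clusters were called in some comparisons. Of 20 such genes tested, among them CTCF, the cohesin subunits, their loaders and the DNA methyltransferases, 4, 5 and 0 were called lower and 0, 0 and 1 higher in MMP2sh1 at the successive stages, and 7, 6 and 0 lower and 0, 1 and 1 higher in MMP2sh2. Of all genes, 6.14, 8.58 and 7.11% were called lower and 5.42, 8.26 and 7.68% higher in MMP2sh1, and 6.33, 5.81 and 3.43% lower and 4.71, 7.07 and 2.89% higher in MMP2sh2. TET2, which oxidizes 5-methylcytosine, was lower in MMP2sh1 in subconfluent (−0.67 ± 0.08, adjusted p = 4.6e-06) and confluent cells (−0.66 ± 0.06, adjusted p = 1.8e-09). DNMT1, the maintenance methyltransferase, was lower in MMP2sh2 in confluent cells (−0.23 ± 0.04, adjusted p = 1.3e-04), and SMCHD1, a chromatin protein that silences the clusters, in MMP2sh1 in confluent cells (−0.23 ± 0.05, adjusted p = 3.4e-04). In confluent MMP2sh1 cells DNMT1 was at 289 ± 4.76 CPM, against 286 ± 3.23 in control (mean ± SD, n = 3). In subconfluent cells it was at 296.5 ± 2.11 CPM in control, 304.9 ± 3.36 in MMP2sh1 and 242 ± 8.11 in MMP2sh2. In overconfluent cells it was at 209 ± 1.60, 229 ± 6.23 and 194 ± 2.13 CPM in the same order. In confluent MMP2sh2 cells TET2 was at 43.1 ± 4.10 and SMCHD1 at 195 ± 9.81 CPM, against 51.7 ± 1.85 and 204 ± 4.13 in control. The medians of the list lay between −0.14 and −0.02.

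Among 19 signaling partners and processing proteases of protocadherins, 3, 6 and 3 were lower and 0, 1 and 2 higher in MMP2sh1, and 2, 2 and 0 lower and 1, 2 and 0 higher in MMP2sh2, to be read against the same shares. BRK1 and CYFIP2, subunits of the WAVE regulatory complex that alpha and other protocadherins recruit, were lower in overconfluent MMP2sh1 cells (−0.39 ± 0.06, adjusted p = 5.7e-06) and in confluent MMP2sh1 cells (−0.33 ± 0.06, adjusted p = 5.0e-05). In MMP2sh2 BRK1 was at 118 ± 4.99 CPM when overconfluent, against 130.9 ± 1.94 in control, and at 123.5 ± 2.33 when confluent, against 108.9 ± 2.98 (mean ± SD, n = 3). CYFIP2 was at 70.9 ± 1.99 CPM in confluent MMP2sh2 cells, against 72.9 ± 3.38 in control. PSEN2, a catalytic subunit of the gamma-secretase that cleaves protocadherins, was lower in confluent MMP2sh1 cells (−0.47 ± 0.10, adjusted p = 8.6e-04), whereas in confluent MMP2sh2 cells it was not called (0.25 ± 0.09, adjusted p = 0.074). Over expansion in control 5 of the list were higher and 5 lower, against 28.1% and 28.6% of all genes.

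Nonclustered protocadherins, which are dispersed single genes, and the genes that flank the clusters on chromosome 5 were counted in the same way, against the shares of all genes given above. Of 8 or 9 nonclustered members tested, 2, 2 and 3 were lower and 0, 0 and 1 higher in MMP2sh1, and 0, 0 and 0 lower and 1, 1 and 0 higher in MMP2sh2. PCDH1 was higher in overconfluent MMP2sh1 cells (1.29 ± 0.09, adjusted p = 2.2e-11), PCDH7 lower (−0.79 ± 0.07, adjusted p = 1.6e-09) and PCDH18 lower (−0.52 ± 0.12, adjusted p = 0.0037). Of 14 flanking genes tested, 1, 1 and 0 were lower and 0, 3 and 3 higher in MMP2sh1, with medians of 0.10, 0.12 and 0.03, and 0, 0 and 0 were lower and 0, 4 and 1 higher in MMP2sh2. PCDH1 lies beyond the gamma cluster and was counted in this list too. ARAP3, its neighbor, was higher in overconfluent MMP2sh1 cells (0.40 ± 0.06, adjusted p = 4.6e-06), and DIAPH1, a formin gene, in confluent ones (0.21 ± 0.04, adjusted p = 2.2e-04). Over expansion in control, 7 nonclustered protocadherins were higher and 1 lower, with a median of 1.03, and 5 flanking genes were higher and 4 lower, against the same 28.1% and 28.6%, with a median of 0.01.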

How the data were processed

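Polyadenylated RNA of 27 U2OS libraries was sequenced as read pairs. Per the labels and the study's methods, the authors used Trim Galore 0.6.0 for trimming and STAR 2.7.3a for alignment to hg19, removed low-quality alignments and deposited HTSeq 2.0.0 counts per gene symbol, taken on exons without strand in union mode with a minimum quality of 10. The annotation used for counting is not given in the sources used here. In union mode a read on bases that several genes share is left out, so alpha and gamma members were counted on their variable exons and not on the constant exons of their cluster, and antisense reads could not be told apart. Ambiguous reads made up 6.95 to 7.83% of all in each library, and the summary lines as a whole, left out of totals and tests, 16.8 to 19.1%.

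The counts were fitted with edgeR 4.0.16 in R 4.3.3 by the quasi-likelihood test (glmQLFit and glmQLFTest), with TMM factors and filterByExpr (minimum count 10, minimum total 15), on the libraries of each of 20 comparisons, and p-values were adjusted by the Benjamini-Hochberg method over all genes tested, with a threshold of 0.05. Standard errors were taken as the log2 fold change over the square root of F. CPM used TMM-scaled totals of all 27 libraries. The script was tested on simulated data. The alternatives were DESeq2 1.42.0, median-of-ratios size factors, 2 other filters, 1 fit of all libraries, a replicate block, CPM without TMM factors and leaving out each library. Gene positions and own exon lengths came from GENCODE v44 lifted to GRCh37, and promoters from RefSeq.

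The members, gene lists and tests were chosen with earlier results of these data known. Values in every library are given for members called against control in 1 direction at 2 or more stages in either line and for the 3 members of each cluster with the highest level per length, and at most 3 genes of each other list, those with the lowest adjusted p against control, are named. The study calls its replicates independent biological replicates, and p-values measure the spread between them.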

Additional observations from a re-analysis of the deposited data

Results flagged for a closer look

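The rise from subconfluent to overconfluent cells differed between MMP2sh1 and control for 2 members, by a test of the difference itself (the interaction of line and stage in edgeR's quasi-likelihood fit). For PCDHB11 the log2 rise was larger in MMP2sh1 by 0.81 ± 0.17 (SE, adjusted p = 0.0034), and for PCDHB14 by 0.73 ± 0.17 (adjusted p = 0.0062). Both calls held in every alternative, with each library left out in turn included. The share of members called, 2 of 52, was no higher than the 4.52% of all genes.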

How the results depend on the processing

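Of 58 calls of members against control, 31 held in every alternative that tested the member and 0 changed direction. Where an alternative gave no adjusted p for a member, as with too few reads, its call was counted as neither held nor lost there. DESeq2 lost 4 of them, 1 fit of all 27 libraries 11, no filter 4, a minimum of 10 reads per library 1 and median-of-ratios size factors 0, and 24 were lost without 1 library or more. Of 213 calls over expansion 155 held, and of 15 between the knockdown lines 2. Low counts limit the gamma and weaker alpha members. The cause of the changes below was not tested.

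With 1 fit of all 27 libraries the number of members called became 2 (from 8) for MMP2sh1 against control in overconfluent cells, 1 (from 2) for MMP2sh2 in those cells, 10 (from 6) for confluent against subconfluent MMP2sh1 cells, 9 (from 5) and 1 (from 2) for MMP2sh1 against MMP2sh2 in subconfluent and overconfluent cells, and 4 (from 2) for the interaction of MMP2sh1 and expansion. DESeq2 also gave 4 for that interaction. With a minimum of 10 reads per library, confluent against subconfluent MMP2sh2 cells gave 2 (from 4), and without a filter MMP2sh1 against MMP2sh2 in overconfluent cells gave 1. Without TMM factors the summed CPM became 56.11 and 67.74 for alpha in confluent and overconfluent control cells, 43.49 for alpha in subconfluent MMP2sh1 cells, 105.7 and 126.5 for beta in subconfluent and confluent MMP2sh2 cells, 55.19 for gamma in confluent control cells and 88.87 for gamma in overconfluent MMP2sh2 cells.

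With each library left out in turn, the number of members called ran from 3 to 10 for MMP2sh1 in overconfluent cells, 2 to 4 and 1 to 2 for MMP2sh2 in subconfluent and overconfluent cells, 7 to 14, 3 to 8 and 1 to 2 for confluent against subconfluent cells of control, MMP2sh1 and MMP2sh2, 2 to 5, 2 to 8 and 0 to 2 for MMP2sh1 against MMP2sh2 at the successive stages, and 2 to 4 and 0 to 1 for the interactions of MMP2sh1 and MMP2sh2.

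Same-numbered libraries of the groups compared did not deviate together (correlations of −0.025 to 0.036 over 54 pairs, none over 0.1), so the numbers did not pair the libraries. With the replicate block 4 calls against control were lost, and MMP2sh1 against MMP2sh2 in overconfluent cells gave 4 members (from 2).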
